A study of Homo sapiens with 3 samples.

Results

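To examine where PHF13 and EZH2 lay at the genes of transforming growth factor beta (TGF-beta) signaling, peaks of both proteins were collected at 10 genes, which were the ligands TGFB1, TGFB2 and TGFB3, the receptors TGFBR1, TGFBR2 and TGFBR3, and SMAD2, SMAD3, SMAD4 and SMAD7. From 20163 protein-coding genes, these were chosen by their role in the pathway and not by their peaks, although earlier results of these data were known. A peak was taken when it lay within 5 kb of any annotated transcript start or inside the gene body, and all peaks up to 100 kb from the gene were listed beside these. This gave 36 of the 19039 PHF13 peaks and 12 of the 21639 EZH2 peaks, of which 16 PHF13 peaks and 6 EZH2 peaks lay in a gene body or near a start.

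Chromatin immunoprecipitation and sequencing (ChIP-seq) had been performed in PANC-1 cells, a line established from a human pancreatic ductal carcinoma, labeled wildtype with no treatment listed. The series held 3 samples, an immunoprecipitation with a PHF13 antibody, one with an EZH2 antibody, and input chromatin, with 1 library each. Chromatin of all 3 had been fixed with EGS, paraformaldehyde and formaldehyde, and input served as the control for peak calling. There were no replicates, so the error between libraries is unknown and no test was run. RNA was not analysed here, so the identity of the cells was not checked against marker genes.

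TGF-beta ligands are secreted in latent form and, once released, bind the type II receptor TGFBR2, which phosphorylates the type I receptor TGFBR1. TGFBR1 in turn phosphorylates SMAD2 and SMAD3, which join SMAD4 and enter the nucleus, while SMAD7 inhibits the active receptor. The pathway restrains the growth of normal pancreatic epithelium and drives invasion in pancreatic carcinoma. EZH2 is the enzyme of Polycomb repressive complex 2 that methylates lysine 27 of histone H3, and PHF13 is a PHD-finger protein that reads methylated lysine 4 of the same histone.

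The sequences at the summits of 7 PHF13 peaks are shown first, because each carried an AP-1 motif, TGACTCA on either strand, which is the letter string bound by JUN and FOS proteins. The motif is in capitals, and the plus strand of GRCh37 is written 5′ to 3′.
TGFB2 intron chr1:218550760-218550879: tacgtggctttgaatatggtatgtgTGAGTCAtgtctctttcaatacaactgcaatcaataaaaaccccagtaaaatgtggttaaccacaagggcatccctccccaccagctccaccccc
TGFBR2 first intron chr3:30653496-30653615: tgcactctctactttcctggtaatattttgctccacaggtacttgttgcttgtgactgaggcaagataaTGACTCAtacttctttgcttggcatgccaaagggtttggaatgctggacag
TGFBR2 later intron chr3:30700786-30700905: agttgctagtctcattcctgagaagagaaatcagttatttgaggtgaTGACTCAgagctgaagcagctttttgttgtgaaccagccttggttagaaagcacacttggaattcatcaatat
SMAD3 upstream chr15:67316833-67316952: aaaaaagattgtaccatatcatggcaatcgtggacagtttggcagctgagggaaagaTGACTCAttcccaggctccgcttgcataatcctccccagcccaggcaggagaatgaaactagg
SMAD3 internal start chr15:67417936-67418053: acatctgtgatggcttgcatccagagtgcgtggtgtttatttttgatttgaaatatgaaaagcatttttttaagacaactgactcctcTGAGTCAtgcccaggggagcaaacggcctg
SMAD3 intron chr15:67442491-67442610: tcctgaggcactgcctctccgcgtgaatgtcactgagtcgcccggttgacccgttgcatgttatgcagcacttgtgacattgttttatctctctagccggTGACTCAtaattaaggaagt
SMAD7 downstream chr18:46399772-46399891: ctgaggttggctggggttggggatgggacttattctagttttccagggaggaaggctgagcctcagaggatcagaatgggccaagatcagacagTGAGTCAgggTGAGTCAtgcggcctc

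The next sequences are from a PHF13 peak at the TGFBR2 start and 2 EZH2 peaks of TGFBR3, and are shown for their CG content. Capitals mark CG, the dinucleotide that is dense in CpG islands, which occurred 10 times in 187 bp under the TGFBR2 start, 6 times in 120 bp near the internal TGFBR3 start and 1 time in 120 bp deeper in that gene. The TGFBR2 sequence stops at the last base before the first exon.
TGFBR2 outermost start, PHF13 peak, chr3:30647906-30648092: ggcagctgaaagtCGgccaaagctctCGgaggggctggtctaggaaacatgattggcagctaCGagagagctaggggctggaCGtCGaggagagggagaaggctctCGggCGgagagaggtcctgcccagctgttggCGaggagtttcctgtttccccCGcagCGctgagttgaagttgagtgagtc
TGFBR3 near an internal start, EZH2 peak, chr1:92350522-92350641: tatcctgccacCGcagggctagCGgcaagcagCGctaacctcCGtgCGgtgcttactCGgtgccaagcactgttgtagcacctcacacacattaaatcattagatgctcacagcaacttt
TGFBR3 intron, EZH2 peak, chr1:92242265-92242384: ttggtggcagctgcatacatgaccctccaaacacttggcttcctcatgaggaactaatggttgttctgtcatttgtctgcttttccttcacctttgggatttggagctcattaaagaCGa

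The only site with peaks of both antibodies is shown because it was not unique sequence. It lay in a SMAD2 intron, and no letters are in capitals.
SMAD2 intron, shared peak, chr18:45379625-45379744: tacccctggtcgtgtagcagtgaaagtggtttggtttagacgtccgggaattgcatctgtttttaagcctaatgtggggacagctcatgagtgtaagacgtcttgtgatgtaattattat

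Around the 10 genes, PHF13 peaks outnumbered EZH2 peaks, 36 against 12, and most PHF13 peaks lay at TGFB2, TGFBR2 and SMAD3. Within 100 kb, PHF13 peaks were found at 8 of 10 genes (75.6% of all protein-coding genes) and EZH2 peaks at 4 (77.1%), which were TGFB1, TGFBR3, SMAD2 and SMAD3. These 4 had both (61.4% of all genes). TGFB2, TGFBR2, SMAD4 and SMAD7 had PHF13 peaks and no EZH2 peak, a pattern seen at 14.1% of all genes. TGFB3 and TGFBR1 had neither, as did 8.81% of all genes. Counted over the windows of the 10 genes, PHF13 peaks had a density of 12.5 per Mb and EZH2 peaks of 4.16 per Mb, while the densities over the windows of all protein-coding genes, which overlap each other, were 8.09 and 9.88 per Mb. The PHF13 peaks were unevenly spread, since TGFB2, TGFBR2 and SMAD3 together held 24 of the 36. Each of the other genes had at most 3, against a median of 2 over all protein-coding genes.

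**Figure D1:**
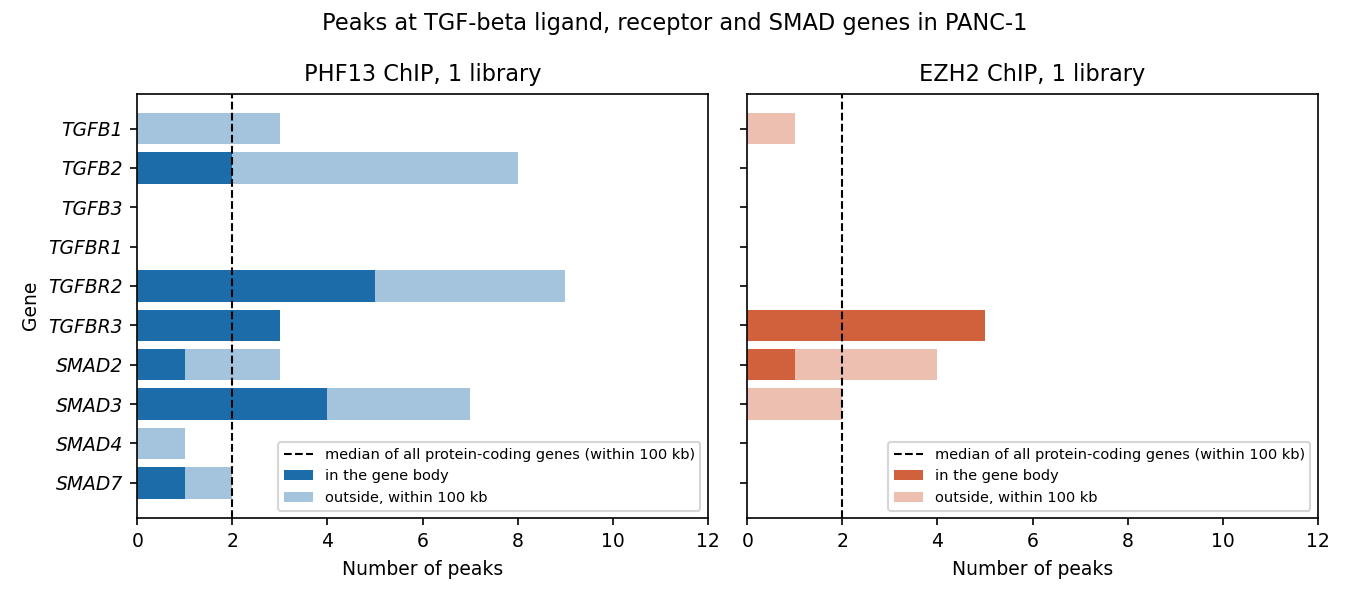
Number of PHF13 peaks (left) and EZH2 peaks (right) at each gene, with 1 library per antibody. Dark bars are peaks in the gene body, pale bars are peaks outside it within 100 kb, and the dashed line is the median of all protein-coding genes within 100 kb, which was 2 in both lists. TGFBR2 (9), TGFB2 (8) and SMAD3 (7) had the longest PHF13 bars, and TGFBR3 (5) had the longest EZH2 bar. Peaks of any −log10 q in the lists are counted.

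Close to transcript starts the numbers were small. A PHF13 peak within 5 kb of a start was present at 3 of 10 genes (21% of all protein-coding genes), namely TGFBR2, SMAD3 and SMAD7. An EZH2 peak was present at 1 of 10 (23.6%), TGFBR3, and no gene had both (5.33%). The other 6 genes had neither near a start, as did 60.7% of all genes. The counts rested in part on internal starts, because with only the outermost start of each gene PHF13 was left at 1 gene, TGFBR2, and EZH2 at 0. They rested on weak peaks as well, since at a −log10 q of at least 3 the PHF13 count was 1, SMAD3. In gene bodies, PHF13 peaks lay in 6 of 10 genes (26.8% of all genes) and EZH2 peaks in 2 (26.2%), TGFBR3 and SMAD2. Of the 10 genes, 8 are longer than 50 kb, and the share of genes with a peak grows with length. A PHF13 body peak was present in 23.7% (20 to 50 kb), 37.1% (50 to 100 kb), 54.3% (100 to 200 kb) and 68.7% (over 200 kb) of genes. For EZH2 these shares were 21.7%, 33.9%, 45.9% and 67.1%. Body counts below are therefore set against genes of similar length. Counts within 100 kb are set against all genes, and since longer genes have wider windows, those shares were not matched for length.

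For each peak the fold enrichment is the ratio of ChIP fragments at the summit, the highest point of the peak, to the local background that the peak caller estimated, with a pseudocount of 1 added to both. Fold enrichment at the 36 PHF13 peaks ranged from 2.68 to 12.2 with a median of 3.62, against a median of 3.41 over the whole list. The 12 EZH2 peaks ranged from 2.77 to 7.93 with a median of 3.23, against 3.13. Most rested on few fragments, with a median of 21 at the summit for PHF13 (range 14 to 83) and of 23.5 for EZH2 (range 14 to 42), so that the 95% exact Poisson interval of a single peak was wide. These intervals cover counting error only. The q-value, the caller's p-value after correction over the genome, is given as −log10 q, and 13 PHF13 peaks and 2 EZH2 peaks had one no lower than 5. Of all 19039 PHF13 peaks, 5797 did. The median −log10 q of the 12 EZH2 peaks was 4.24, against 3.99 over the whole EZH2 list. A ChIP value averages over many cells, and fewer occupied cells cannot be told apart from weaker occupancy per cell.

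**Figure D2:**
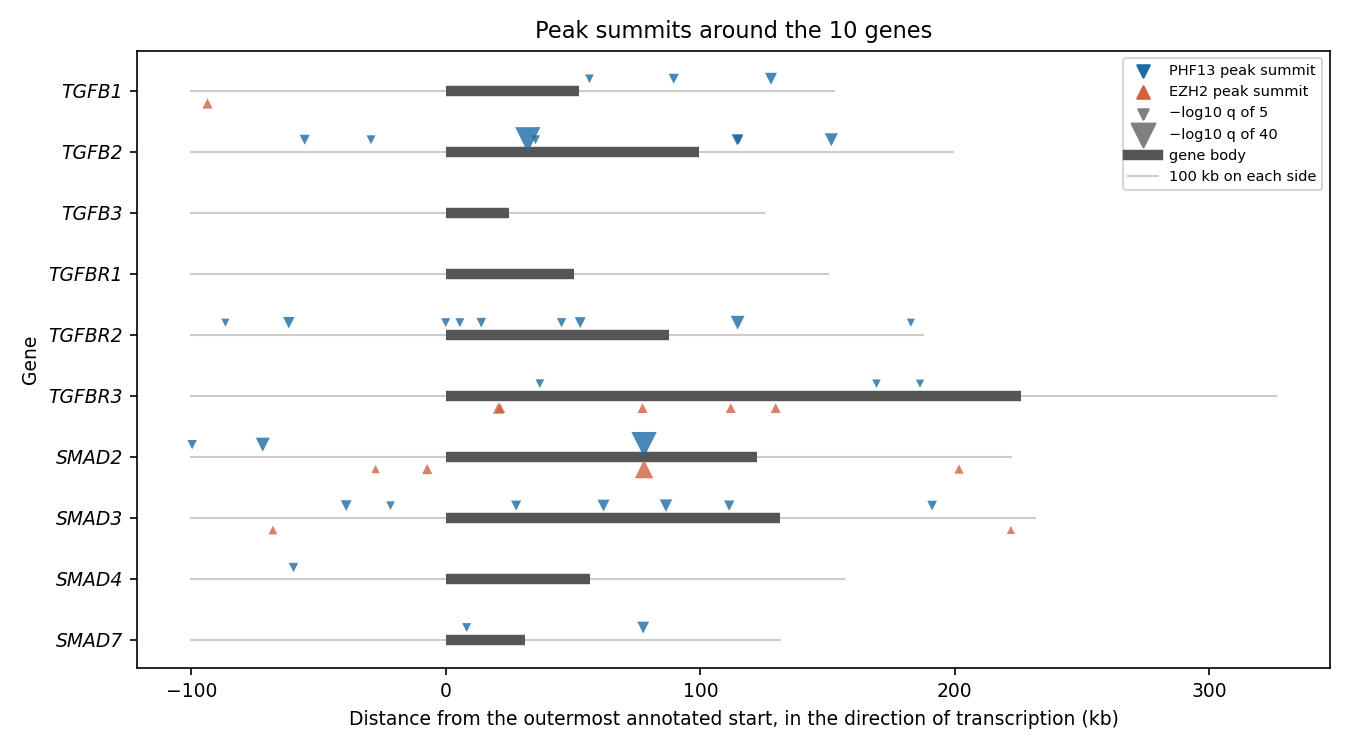
Peak summits around the 10 genes, with the distance from the outermost annotated start in kb on the horizontal axis, positive in the direction of transcription. Blue triangles above each line are PHF13 summits and orange triangles below it are EZH2 summits, their area grows with −log10 q, and the thick bar is the gene body. The largest symbols are the PHF13 peaks in the introns of TGFB2 (−log10 q 45.7) and SMAD2 (46.1).

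Among the ligands, TGFB2 stood out by a single strong PHF13 peak. TGFB2 (ENSG00000092969, chr1:218518678-218617961, plus strand) encodes the isoform that depends most on betaglycan for receptor binding. The peak at chr1:218550692-218550982 lay in an intron, 32142 bp from the outermost start. At its summit 83 fragments stood over a background of 8.94, an enrichment of 8.45-fold (95% interval 6.75 to 10.4) at a −log10 q of 45.7. Only 1.75% of all PHF13 peaks had a higher −log10 q. The AP-1 motif shown above was centered 32 bp from the summit, and the same 200 bp held a SMAD box, CAGAC. A second intronic peak, at chr1:218553788-218553978, reached a fold enrichment of 2.75 (1.83 to 3.98) with 26 fragments. The intervals of these peaks did not overlap.

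TGFB2 had further PHF13 peaks outside the gene, most of them past its end. A group of 3 lay 14973 to 15765 bp beyond it, within chr1:218632934-218633957, in an intron of the long noncoding RNA LINC02869. Their fold enrichments were 3.79, 3.57 and 2.74, and the second held an AP-1 motif 4 bp from its summit. Another at chr1:218670010-218670233, 52049 bp past the gene, was enriched 4.83-fold (3.33 to 6.79) at a −log10 q of 9.77. Upstream, a peak 29418 bp from the gene reached 3.21, and a peak in an intron of RRP15 with 21 fragments lay on sequence whose median 24-mer occurs 4110 times in the genome. In all, 8 or more PHF13 peaks within 100 kb were found at 2.76% of protein-coding genes, and 2 or more in the body at 11.7% of genes 50 to 100 kb long. No EZH2 peak lay within 100 kb, and the closest was 179410 bp from a TGFB2 start.

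TGFB1 and TGFB3 had no peak of either protein in the body. TGFB1 (ENSG00000105329, chr19:41807492-41859827, minus strand), which encodes the best studied of the ligands, had 3 PHF13 peaks and 1 EZH2 peak within 100 kb, and all 4 were closer to the start of another gene. The strongest, enriched 4.27-fold (2.90 to 6.06) at a −log10 q of 7.65, lay 280 bp from a start of AXL, a receptor tyrosine kinase gene, and held an AP-1 motif 9 bp from its summit. The other 2 PHF13 peaks were at HNRNPUL1, an RNA-binding protein gene, with fold enrichments of 3.87 and 3.17. The EZH2 peak had a fold enrichment of 3.54 and lay 4742 bp from a start of ERICH4.

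TGFB3 (ENSG00000119699, chr14:76424440-76449354, minus strand), a ligand known for its part in palate and lung development, had no peak within 100 kb. The closest PHF13 peak to a TGFB3 start was 312294 bp away and the closest EZH2 peak 131220 bp. Chromosome 14 as a whole held 2.245 PHF13 peaks and 4.13 EZH2 peaks per Mb. In either list, the called peaks with the fewest fragments had 13 where the background was lowest and 20 where it was 8 to 9. The local background at TGFB3 is not known from the lists, and binding under the limit of the peak caller was not detectable.

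Of the receptors, TGFBR2 carried the densest set of PHF13 peaks. TGFBR2 (ENSG00000163513, chr3:30648093-30735634, plus strand) encodes the kinase that binds ligand first. It had 9 PHF13 peaks within 100 kb, a number reached by 1.81% of protein-coding genes, and 5 over the body, reached by 0.288% of genes 50 to 100 kb long. Of the 5, 1 only touched the gene and had its summit outside, and 4 or more were found in 0.767% of genes of that length. Of the 9, those with a −log10 q of 1.69, 1.70, 2.86 and 2.90 fell below 3. At SMAD3 only the peak at 2.32 did, so the place of TGFBR2 as the gene with the most peaks depends on the q limit. There was no EZH2 peak within 100 kb, the closest being 185051 bp from a start.

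A PHF13 peak at chr3:30647906-30648106 spanned the outermost TGFBR2 start, with its summit 113 bp upstream. Its fold enrichment was 3.20 (1.99 to 4.91), its −log10 q 2.90, and it rested on 19 fragments, and 67.6% of PHF13 peaks had a higher −log10 q. The 500 bp around the summit had a ratio of observed to expected CpG of 0.759. No AP-1 motif lay in the 200 bp at this summit, although the whole peak held 1 that began at 30648087 and ran across the first base of the first exon.

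The 4 TGFBR2 peaks inside the gene were intronic and had fold enrichments between 3.18 and 4.04. In order of transcription these were 3.18 (1.98 to 4.88), 3.72 (2.31 to 5.70), 3.43 (2.13 to 5.25) and 4.04 (2.67 to 5.90), with overlapping intervals throughout. The first, at chr3:30653265-30653600, and the last, at chr3:30700734-30701243, held the AP-1 motifs shown above, 12 bp and 10 bp from their summits. The strongest PHF13 peak of the locus lay outside the gene, 26960 bp past its end at chr3:30762594-30762833, enriched 5.74-fold (3.91 to 8.16) at a −log10 q of 11.4, and had an AP-1 motif 23 bp from the summit. A peak 61649 bp upstream reached 4.57. The other 2 peaks, with fold enrichments of 2.80 and 2.87, lay on sequence whose median 24-mer occurs 14 and 8 times.

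TGFBR3 differed from the other receptors in having EZH2 peaks. TGFBR3 (ENSG00000069702, chr1:92145900-92371892, minus strand) encodes betaglycan, the co-receptor that presents ligand to TGFBR2. All 5 of its EZH2 peaks had their summits in introns, with fold enrichments of 3.19 to 3.87. A body count of 5 or more was reached by 15.1% of genes over 200 kb long. The strongest, at chr1:92351070-92351519, was enriched 3.87-fold (2.58 to 5.61) by 26 fragments at a −log10 q of 6.31, and spanned an internal start, 20648 bp from the outermost one. Over its 500 bp GC made up 73.2% and the CpG ratio was 0.837. A neighboring peak at chr1:92350458-92350663, shown above, reached 3.36 and lay 826 bp from that start. At 450 bp the first of these was the widest EZH2 peak of the 10 genes, none of which exceeded 1 kb, although 7.67% of all EZH2 peaks did.

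PHF13 peaks were found in the TGFBR3 body as well, but apart from those of EZH2. They numbered 3, with fold enrichments of 2.78 in a coding exon at chr1:92185504-92185704, 2.68 in an intron and 3.25 in an intron on sequence whose median 24-mer occurs 84 times. All had a −log10 q under 3, and none overlapped an EZH2 peak. Of genes over 200 kb, 33.8% had as many. Of the EZH2 peaks, the one at chr1:92259899-92260048 also lay on repeated sequence, with a median 24-mer count of 1998.

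TGFBR1 (ENSG00000106799, chr9:101866320-101916474, plus strand), the type I receptor that phosphorylates SMAD2 and SMAD3, had no peak of either protein within 100 kb. The closest PHF13 peak was 801652 bp from a TGFBR1 start and the closest EZH2 peak 159128 bp. Chromosome 9 held 4.01 PHF13 peaks and 5.32 EZH2 peaks per Mb. TGFBR2 and TGFBR1, which signal as a complex, lay at opposite ends of the PHF13 counts, 9 against 0.

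**Figure D3:**
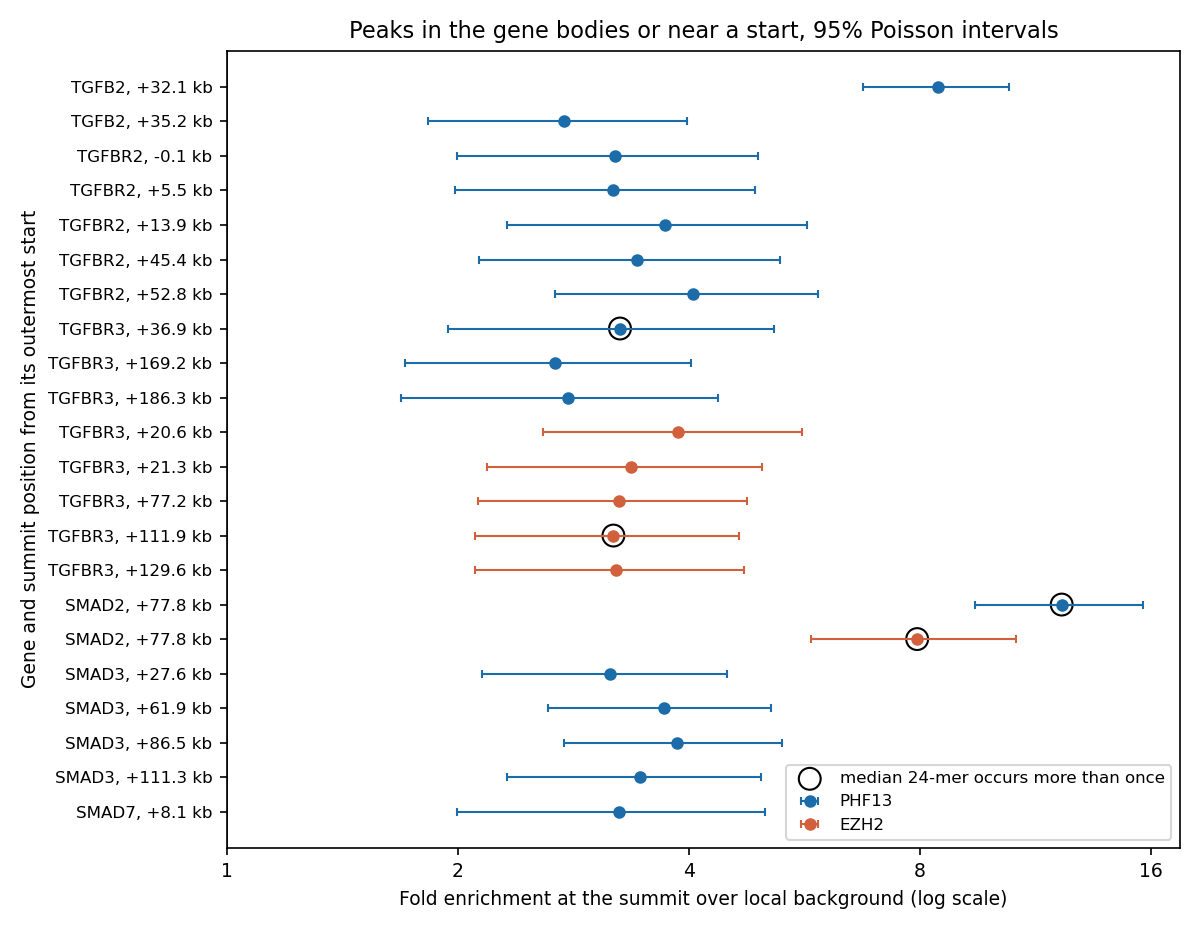
Fold enrichment at the summit (horizontal axis, log scale) of each peak in a gene body or near a start, with 95% exact Poisson intervals as bars. Blue points are PHF13, orange points are EZH2, and black rings mark peaks whose median 24-mer occurs more than once in the genome. The PHF13 peak of TGFB2 at 8.45 and the shared SMAD2 site at 12.2 and 7.93 lie to the right of all others, which fall between 2.68 and 4.04.

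SMAD3 had PHF13 peaks along much of its body, each with an AP-1 motif. SMAD3 (ENSG00000166949, chr15:67356101-67487511, plus strand), the receptor-activated SMAD that binds DNA directly, had 7 PHF13 peaks within 100 kb, a number reached by 4.27% of genes, and 4 in the body, reached by 4.44% of genes 100 to 200 kb long. All 4 body peaks held an AP-1 motif, as did 1 upstream peak, which made 5 of 7. Fold enrichments in the body were 3.15 (2.15 to 4.48), 3.71 (2.62 to 5.12), 3.86 (2.75 to 5.28) and 3.45 (2.32 to 4.96), so no peak stood apart from its neighbors. Background at the SMAD3 peaks ranged from 5.11 to 8.84 fragments, above the lowest value of the list, 4.23.

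The SMAD3 peak at chr15:67417936-67418127 spanned an internal start of a protein-coding transcript at 67418054, with a −log10 q of 7.54, 35 fragments and an AP-1 motif 7 bp from the summit. The one at chr15:67442496-67442918 was the strongest, with a −log10 q of 8.55, 37 fragments and the motif 43 bp away. At the upstream peak, chr15:67316827-67316970, the motif was centered on the summit itself and the fold enrichment was 3.78 (2.52 to 5.48). The remaining PHF13 peaks were at 21571 bp upstream, with 2.75, and at the start of IQCH, with 3.60. SMAD3 had 2 EZH2 peaks, both outside the gene, with fold enrichments of 3.14 and 2.77.

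SMAD2 held the most enriched peak of each list among the 10 genes, and the only shared site. SMAD2 (ENSG00000175387, chr18:45335328-45457517, minus strand) encodes the other receptor-activated SMAD. In 1 of its introns, PHF13 had a peak at chr18:45379587-45379794 that held 63 fragments, 12.2-fold over background (9.45 to 15.6), at a −log10 q of 46.1. EZH2 had a peak at chr18:45379575-45379798 that held 42 fragments, 7.93-fold over background (5.77 to 10.7), at a −log10 q of 22.8. Their summits were 13 bp apart and 208 bp were shared. The site lay in MTCO2P2, a pseudogene copied from the mitochondrial genome, its median 24-mer occurred 3 times, and 66.2% of the 24-mers at the summit were present in the mitochondrial genome. The part of mitochondrial reads in these values was not tested. Of all peaks, 11.7% of PHF13 and 10.3% of EZH2 peaks were shared, and among peaks whose median 24-mer was unique 2.67% and 2.32% were. Without such repeated sequence, no peak of the 10 genes was shared.

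Outside this site SMAD2 had no further peak in the body, and at least 1 body peak was present in 54.3% (PHF13) and 45.9% (EZH2) of genes 100 to 200 kb long. Upstream there were PHF13 peaks at 71869 bp enriched 5.59-fold (3.86 to 7.86) at a −log10 q of 11.8, and at 99679 bp, enriched 3.63-fold. EZH2 peaks were enriched 3.64-fold at 7321 bp upstream, 2.89-fold at 27580 bp upstream and 2.87-fold at 79330 bp past the end. The first EZH2 peak was the closest to a SMAD2 start.

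SMAD4 and SMAD7 had few peaks, all of PHF13. SMAD4 (ENSG00000141646, chr18:48554898-48611415, plus strand), the common partner and a tumor suppressor often lost in pancreatic carcinoma, had 1 PHF13 peak within 100 kb, at chr18:48494306-48494882 over a start of ELAC1, with a fold enrichment of 3.63 (2.23 to 5.63). SMAD7 (ENSG00000101665, chr18:46446223-46477335, minus strand), the inhibitory member, had a body peak at chr18:46469052-46469257 over the start of a transcript with no defined coding sequence. It reached 3.25 (1.99 to 5.03) on 18 fragments and held 2 SMAD boxes. A body peak was present in 23.7% of genes 20 to 50 kb long. The second SMAD7 peak lay 46277 bp past the gene, closer to CTIF, with 4.78 (3.13 to 7.02), a −log10 q of 7.43 and 2 AP-1 motifs. Having 2 or more such motifs was seen at 1.73% of all PHF13 peaks. The closest EZH2 peaks were 141522 bp from a SMAD4 start and 480118 bp from a SMAD7 start. Chromosome 18 held 4.10 PHF13 and 5.57 EZH2 peaks per Mb. For PHF13, chromosome 3 (TGFBR2) held 6.62, chromosome 15 (SMAD3) 7.24 and chromosome 1 (TGFB2 and TGFBR3) 8.55 per Mb. Whether these densities bear on the counts at the genes was not tested.

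The motifs at the summits were then counted over all these peaks, in 200 bp on both strands. An AP-1 motif was present in 12 of the 36 PHF13 peaks, or 33.3% (95% Wilson interval 20.2 to 49.7), and in 11.2% of all PHF13 peaks. Unique sequence made up 31 of the 36 PHF13 peaks, against 65.6% of the whole list, and 9 of the 12 EZH2 peaks, against 67.9%. With −log10 q of at least 3 the AP-1 share was 11 of 23, or 47.8% (29.2 to 67.0), against 14.5% of all such PHF13 peaks, and with at least 5 it was 8 of 13, or 61.5% (35.5 to 82.3), against 19.6%. Among PHF13 peaks of unique sequence the motif was in 12 of 31, or 38.7%, and in 15.4% of all such peaks. The motif lay a median of 11 bp from the summit, and within 25 bp in 8 of 12, or 66.7%. In all 2126 PHF13 peaks with the motif, the median was 33 bp and 40.0% lay within 25 bp. Of the 12, SMAD3 held 5, TGFBR2 3, TGFB2 2, and TGFB1 and SMAD7 1 each. Peaks of the same gene share a locus and are not independent. In the EZH2 list it was in 0 of 12, which allows a share of up to 24.2% by the Wilson interval, and in 2.31% of all EZH2 peaks.

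The SMAD box CAGAC, the letters that SMAD3 and SMAD4 contact, was about as common here as elsewhere. It was in 13 of 36 PHF13 peaks, or 36.1% (22.5 to 52.4), and in 33.7% of the whole list. Both a SMAD box and an AP-1 motif were in 4 of 36 peaks, or 11.1% (4.41 to 25.3), and in 4.11% of all, and in the EZH2 list both strings were in 0 of 12 peaks and in 0.92% of all. The SMAD palindrome, AGAC directly after its own reverse complement, was in 0 of 36 PHF13 peaks and 0 of 12 EZH2 peaks, against 0.0945% and 0.0924% of the whole lists. The TEAD motif GGAATG, bound by the partners of YAP, was in 12 of 36, or 33.3% (20.2 to 49.7), and in 14.7% of all PHF13 peaks. Unlike the AP-1 share, the TEAD share was not also set against peaks of unique sequence or of higher −log10 q. The RUNX motif TGTGGT was in 5 of 36, or 13.9% (6.08 to 28.7), and in 16.2% of all. In the EZH2 peaks the SMAD box was in 4 of 12, against 35.2% of the whole list, the TEAD motif in 1, against 11.3%, and the RUNX motif in 0, against 12.2%. A match describes letters and was not tested as a binding site.

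**Figure D4:**
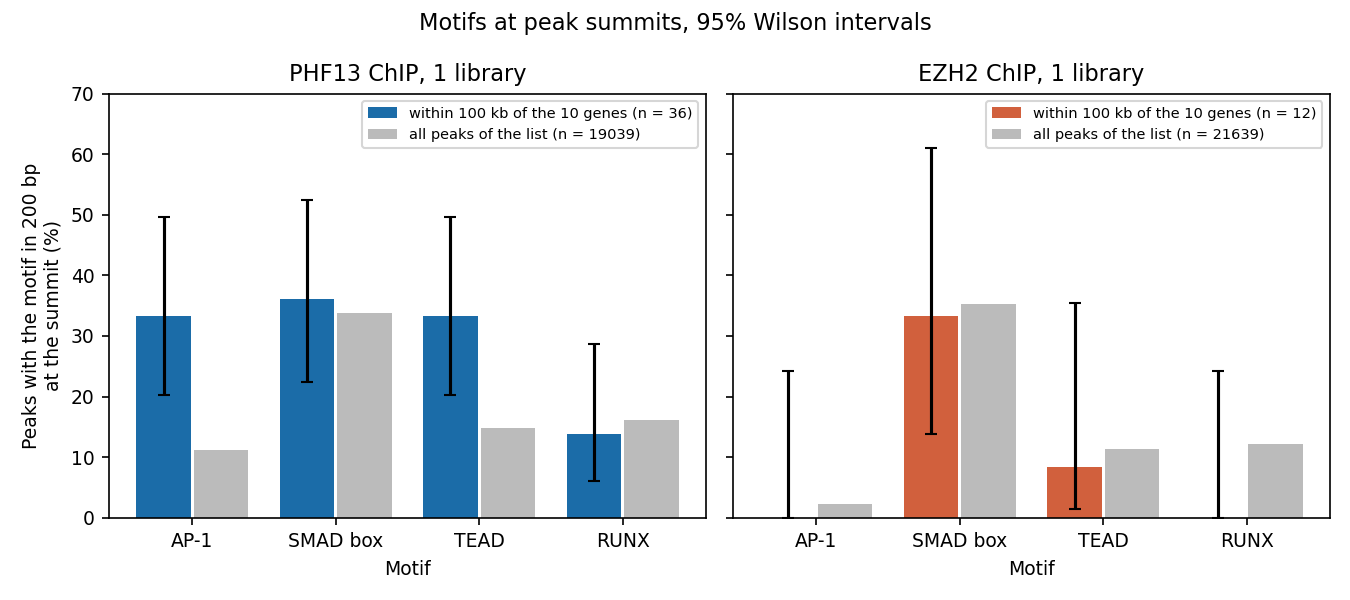
Share of peaks with each motif in 200 bp at the summit, for PHF13 (left) and EZH2 (right). Colored bars are the peaks within 100 kb of the 10 genes with 95% Wilson intervals, and gray bars are all peaks of the list. For PHF13 the AP-1 and TEAD bars (33.3% each) stand above their gray bars (11.2% and 14.7%), and for EZH2 the AP-1 bar is at 0. Gray bars were not matched for unique sequence or −log10 q.

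To place the 10 genes in the wider TGF-beta superfamily, 111 other genes were grouped by role. A PHF13 peak within 5 kb of a start was found at 28 of them (25.2%, against 21% of all protein-coding genes) and an EZH2 peak at 41 (36.9%, against 23.6%). Peaks of both were found at 10 of the 111, against 5.33% of all protein-coding genes, and could lie at different starts of a gene. Some of these rested on weak peaks. The strongest PHF13 peak near a start had a −log10 q of 2.48 at HJV, 2.29 at RGMB, 2.64 at ZFYVE9 and 1.86 at COL1A1. At the other genes with both it was above 3. For EZH2 it was 1.62 at ZFYVE9 and 2.997 at ACVR1, and above 3 at the others. An EZH2 peak over 1 kb wide near a start was found at 25 of the 111, at none of the 10, and at 7.04% of all protein-coding genes. The 25 genes with such wide EZH2 peaks lay in all 7 lists.

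EZH2 peaks were most frequent at the ligands of the bone morphogenetic protein (BMP) branch and at the extracellular antagonists. Of 14 BMP and related ligands, 8 had an EZH2 peak, 6 of these over 1 kb wide, and 0 had a PHF13 peak. These shares were 57.1% for EZH2 and 0% for PHF13, against 23.6% and 21% of all protein-coding genes. GDF7 had an EZH2 peak of 2610 bp enriched 3.74-fold, BMP3 one of 1209 bp enriched 5.91-fold, and BMP2, a bone-inducing ligand, one of 1343 bp enriched 4.41-fold. Of 13 extracellular antagonists, 8 had an EZH2 peak (61.5%) and 2 a PHF13 peak (15.4%). CHRD, which encodes the BMP antagonist chordin, had the antagonist peak with the highest −log10 q, 34.9, and FST, which encodes the activin antagonist follistatin, reached 29.5. BMPER, also a BMP-binding secreted protein, and GREM1 had peaks of both proteins. At BMPER the strongest PHF13 peak and the strongest EZH2 peak did not overlap. At GREM1, which encodes gremlin, the PHF13 peak (fold enrichment 3.72) overlapped the EZH2 peak, which was 2585 bp wide. The widths given here, from named genes only, were all above the 450 bp of the widest EZH2 peak at TGFBR3. Not every gene of these lists had so wide a peak, since the strongest EZH2 peak of another antagonist gene was 177 bp wide.

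Among 17 other receptors and co-receptors, 8 had an EZH2 peak (47.1%) and 5 a PHF13 peak (29.4%). The shares of all protein-coding genes were 23.6% and 21%. BMPR1B, a type I BMP receptor, had the highest EZH2 −log10 q of all the lists, 38.3, over a width of 1508 bp. RGMA, a BMP co-receptor, reached 29.8, and BAMBI, a decoy receptor, reached 28.7. ACVR1, HJV and RGMB had peaks of both proteins, which did not overlap. The PHF13 peaks of HJV and RGMB had a −log10 q of 2.48 and 2.29. ACVR2A and ACVRL1 had peaks of PHF13 only, with fold enrichments of 3.95 and 3.22. Of 10 genes of latent TGF-beta binding and activation, 5 had an EZH2 peak (50%) and 2 a PHF13 peak (20%). ITGB8, an integrin subunit that activates latent ligand, had an EZH2 peak of 2027 bp with a −log10 q of 26.7, and LRRC32, which tethers latent ligand to the cell surface, one of 1656 bp with 24.5. LTBP2 reached 15.8 and LTBP3 had PHF13 only, with a fold enrichment of 3.09. At LTBP1, which anchors latent ligand in the matrix, a PHF13 peak at an internal start was enriched 6.96-fold by 57 fragments and held an AP-1 motif, and EZH2 lay at another start with 3.85.

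The activin, inhibin, nodal and GDF ligands, 16 genes, had 3 with PHF13 (18.8%) and 2 with EZH2 (12.5%). The shares of all protein-coding genes were 21% and 23.6%. GDF15 had a PHF13 fold enrichment of 4.48 with an AP-1 motif, INHBA 3.35 and INHBE 2.66, while INHBB and GDF10 had EZH2 peaks with 3.65 and 3.57. Of 18 other SMADs and regulators, 6 had PHF13 (33.3%) and 3 had EZH2 (16.7%). SKIL, a SMAD corepressor gene, had a PHF13 fold enrichment of 3.88, NEDD4L, a ubiquitin ligase gene, 4.18, and TGIF1 5.02 on sequence whose median 24-mer occurs 12 times. SMAD9 and SMAD6 had EZH2 peaks with 3.90 and 4.28. ZFYVE9, the SMAD anchor, had both proteins in peaks that did not overlap, with 3.15 for PHF13 and 2.70 for EZH2. The −log10 q of these peaks was 2.64 and 1.62. Near a start, SMAD1, SMAD5, SMAD6 and SMAD9 had no PHF13 peak, and neither had SMAD2 and SMAD4.

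Of 24 genes known to respond to TGF-beta, 10 had a PHF13 peak near a start and 8 an EZH2 peak. Over all protein-coding genes the shares were 21% and 23.6%. TGFBI, named for its induction by TGF-beta, had a PHF13 fold enrichment of 3.40 with an AP-1 motif, and ID1 had 2.85. FN1, PTHLH and COL1A1 had both proteins, with PHF13 fold enrichments of 3.63, 3.26 and 2.55 and EZH2 peaks of 2248, 1764 and 1338 bp. The −log10 q of these PHF13 peaks was 3.48, 3.86 and 1.86. The peaks did not overlap at FN1 and COL1A1. The PTHLH EZH2 peak overlapped a different PHF13 peak from the one given here. In this list the PHF13 share was 41.7% and the EZH2 share 33.3%, whereas among the 14 BMP ligands these were 0% and 57.1%. With 1 library per antibody and lists chosen by role, these differences were not tested.

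**Figure D5:**
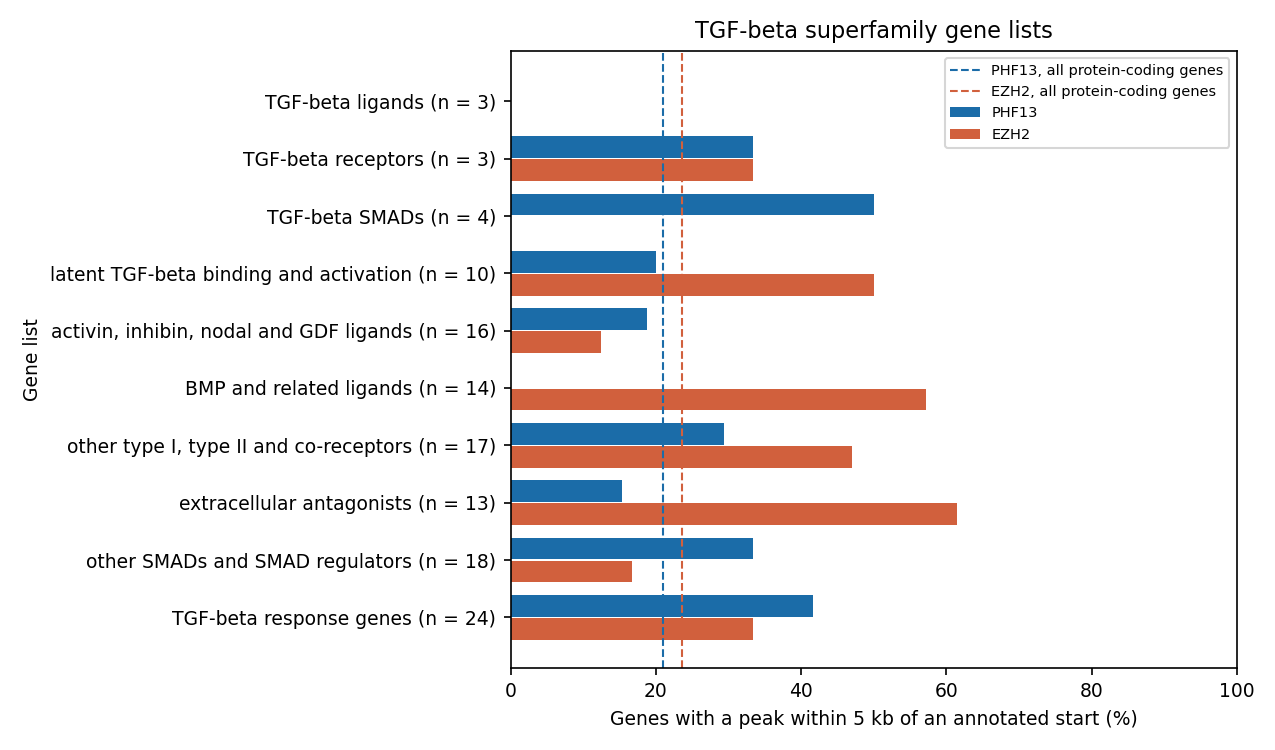
Share of genes in each list with a PHF13 peak (blue) or an EZH2 peak (orange) within 5 kb of a start, in percent, with the number of genes beside each list name. Dashed lines are the shares of all protein-coding genes, 21% for PHF13 and 23.6% for EZH2. The EZH2 bars are longest for the extracellular antagonists (61.5%) and BMP ligands (57.1%).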

How the data were processed

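Input, PHF13 and EZH2 libraries from PANC-1 cells were listed in the series, and the PHF13 and EZH2 peak lists were analysed. According to the methods and the submitters' processing notes, the authors trimmed reads with Trim Galore (0.4.1), aligned them to hg19 with Bowtie2 (2.4.1), removed duplicates with Picard and called peaks for each antibody against input with MACS2 (2.2.7.1). The deposited columns hold a score, the fold enrichment (a ratio at the summit), and −log10 p-values and −log10 q-values. The lists were used as deposited, although the lowest −log10 q was 1.30 in both, a looser limit than the methods state for PHF13, and the EZH2 list is in narrow format although broad peaks are described.

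Fold enrichment and p were solved for the whole number of fragments and the local background at the summit, with a relative tolerance of 0.0001 and a pseudocount of 1, and 1 solution was found for 100% of peaks. The median summit held 21 fragments for PHF13 and 25 for EZH2, and total depth is unknown. Intervals are 95% exact Poisson for fragments, with the background taken as fixed, and 95% Wilson for shares. Starts and genes were from GENCODE release 44 on GRCh37, and positions are 1-based. Sequences were read from the GRCh37 genome with pyfaidx (0.9.0.4), 120 bp at a summit, cut to end before an exon. Motifs were sought in 200 bp, composition was taken over 500 bp, and every 24-mer in 100 bp at the summit was counted in the genome. Sequence with a median 24-mer count of 1 was called unique or single-copy. An overlap of 1 bp or more made peaks shared. Python (3.11.15), pandas (2.3.3) and scipy (1.17.1) were used.

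The 10 genes, the lists and the alternatives were chosen with earlier results of these data known. From the wider lists, genes with peaks of both antibodies within 5 kb of a start were named, and per list the 3 genes with the highest −log10 q for each antibody. Neighboring genes were named where a peak lay within 5 kb of their start, and LINC02869, MTCO2P2 and CTIF after their values were seen. By rule, up to 4 sequences per list came from peaks in a gene body or near a start, outside exons, in order of −log10 q. Of the EZH2 peaks so listed, the first and the last, both at TGFBR3, were picked for printing after their values were seen. The sequences at the TGFBR2 start and first intron, the SMAD3 internal start and upstream peak, the shared SMAD2 site and the SMAD7 downstream peak were chosen after their values were seen. Some sequences and genes that met these rules are not reported here. Samples were grouped by antibody and no test was run.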

Additional observations from a re-analysis of the deposited data

How the results depend on the processing

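In all, 56 alternatives were tried, and 45 stayed within 1.5 times the reported count. The 45 include counts that were 0 in both settings, so the total is not a measure of stability. A window of 10 kb around starts gave 2 genes with an EZH2 peak (TGFBR3 and SMAD2) and 1 with both. With 1 start per gene, PHF13 was near a start at 1 gene and EZH2 at 0. At a −log10 q of at least 3, PHF13 was near a start at 1 gene and had 23 peaks within 100 kb. At a −log10 q of at least 5 these were 1 and 13, and EZH2 had 2 peaks within 100 kb. With single-copy peaks only, EZH2 was in the body of 1 gene and 0 PHF13 peaks overlapped an EZH2 peak. In each case the alternative changes which peaks or starts are counted. The AP-1 count of PHF13 peaks ranged from 8 to 12. No paired analysis was possible because each antibody has 1 library. Depth limits what could be called, since the weakest called peaks had 13 fragments where the background was lowest and 20 where it was 8 to 9.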
